A study of Homo sapiens with 4 samples.

Results

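The 76 histone genes described here are every row, of 18398 in all, whose symbol begins with HIST1H, HIST2H, HIST3H or HIST4H, or with H1F, H2AF or H3F. The names of 63 belong to the clustered genes, which are copied in groups along a few chromosomes, and the names of 13 belong to variant genes outside the clusters. RNA was sequenced from Huh7 cells with ODC1 siRNA, Huh7 cells with negative control (NC) siRNA, Huh1 cells with ODC1 siRNA and Huh1 cells with NC siRNA, with 1 library for each of these 4 groups. Huh7 and Huh1 are established human hepatocellular carcinoma cell lines, and no genotype, time after transfection or siRNA dose is given in the sources used here. ODC1 encodes ornithine decarboxylase, the enzyme that begins polyamine synthesis. ODC1 itself stood at 7.50 RPKM with ODC1 siRNA and 167 RPKM with NC siRNA in Huh7 cells, and at 25.0 RPKM with ODC1 siRNA and 103 RPKM with NC siRNA in Huh1 cells. Its log2 fold change over both lines was -3.15 ± 0.40 (limma SE, adjusted p = 0.0157).

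Histones are the proteins around which nuclear DNA is wound: H2A, H2B, H3 and H4 form the core particle, and H1 binds the DNA that enters and leaves it. The clustered, replication-dependent genes have no introns and are expressed in S phase, when new DNA has to be packed, and most of their mRNAs end in a stem-loop instead of a poly(A) tail. The stem-loop is bound by SLBP, and the protein NPAT activates the clusters. The variant genes are expressed through the cell cycle, mostly have introns, carry poly(A) tails and encode proteins that are deposited without replication. Some clustered genes also give mRNAs that run past the stem-loop and are polyadenylated, above all in cells that leave the cycle. The library kit named in the labels (TruSeq RNA) selects polyadenylated RNA, so the levels below are those of histone RNA recovered in such libraries, and mRNA without a tail is largely outside them.

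The stem-loop sequence was present, in the GENCODE 29 transcript matched to each gene, in 24 of the 76 members: 23 clustered genes and H2AFX, which encodes the H2A variant phosphorylated at DNA breaks. Only matches to a fixed pattern were counted, and the matched transcript can be short, such as 381 bases for HIST1H2BK. A member without a match may thus still have the element. The forms below are shown since they set clustered genes with measured RNA beside the variant gene that shares the element. Capitals mark the bases of the arms that pair with each other.
HIST1H2AC: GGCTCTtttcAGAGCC
HIST1H2BC: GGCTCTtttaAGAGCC
HIST1H4H: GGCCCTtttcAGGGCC
H2AFX: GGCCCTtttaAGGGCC
In 11 of the 24, the annotated transcript continued for at least 500 bases past the stem-loop, and 8 of these 11 had a poly(A) signal (AATAAA or ATTAAA) in the last 60 bases. The annotated HIST1H2AC transcript ran 1114 bases past it, that of HIST2H2BE 1729 bases and that of H2AFX 1044 bases, each with such a signal. That of HIST1H4H ended 18 bases past it, without one. RPKM values give no position within a transcript, so which ends were sequenced was not measured.

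Promoters of clustered H2A and H2B genes shared a motif that other members mostly lacked. RefSeq promoter windows (GRCh38.p14, 250 bases before to 50 after each start) were found for 69 of the 76 members, in 77 windows. The octamer ATTTGCAT, the site known to be bound by POU-domain factors such as OCT1, was searched on both strands and stood in 11 of 14 windows of clustered H2A genes and 15 of 20 of clustered H2B genes. It stood in 0 of the windows of clustered H1, H3 and H4 genes, in 1 of 16 windows of variant genes (H3F3B), and in 1.77% of all 35116 promoter windows. TATAAA, read in the direction of the gene, stood in 59% of windows of clustered genes, 25% of those of variant genes and 7.33% of all windows. CCAAT on either strand stood in 86.9%, 68.8% and 34.6% of these. The windows below are of H2B genes whose values differed most between the lines, with HIST1H2BN, which has neither motif in this stretch, and each covers the same 30 bases upstream of its start. Capitals mark the octamer and TATAAA, which do not overlap.
HIST1H2BK, chr6:27146879-27146908, minus strand: ccttATTTGCATgagaggtcctaTATAAAa
HIST1H2BJ, chr6:27132816-27132845, minus strand: cttATTTGCATaagcgattctaTATAAAag
HIST2H2BE, chr1:149886703-149886732, minus strand: cctaATTTGCATaaggtggtTATAAAagaa
HIST1H2BH, chr6:26251564-26251593, plus strand: tATTTGCATaaaagacctacaaaaacggcc
HIST1H2BN, chr6:27838519-27838548, plus strand: cgtttccaggactcaccactggttaaacgc
There were 11 pairs of an H2A and an H2B gene that start on opposite strands within 500 bases of each other, and in 8 pairs the same octamer lay in both windows. HIST1H2BC and HIST1H2AC, whose starts lie 246 bases apart, are such a pair, shown here with the shared octamer in capitals as each strand reads it.
HIST1H2BC, chr6:26124027-26124056, minus strand: atacctcATTTGCATagctctgcccacgga
HIST1H2AC, chr6:26124035-26124064, plus strand: cagagctATGCAAATgaggtatgaaagtac
A match is a description of the letters in these windows. No binding was measured.

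Variant genes made up most of the histone RNA in these libraries, and clustered genes were low. All levels are RPKM (reads per kilobase of transcript, scaled to library depth), which are per length and can be set side by side between genes. The summed level of the 13 variant genes was 1238 RPKM with ODC1 siRNA and 1259 RPKM with NC siRNA in Huh7 cells, and 1153 RPKM with ODC1 siRNA and 1109 RPKM with NC siRNA in Huh1 cells. That of the 63 clustered genes was 92.4 RPKM with ODC1 siRNA and 70.6 RPKM with NC siRNA in Huh7 cells, and 234 RPKM with ODC1 siRNA and 217 RPKM with NC siRNA in Huh1 cells. The clustered sum was thus higher in both Huh1 libraries than in both Huh7 libraries, while the variant sum was higher in both Huh7 libraries. A mean of at least 10 RPKM over the 4 libraries was reached by 8 variant and 3 clustered genes, and 48 clustered genes had a mean under 1 RPKM.

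Depth sets what can be read from the low genes. The depth recovered from the smallest values was 10215332 reads for Huh7 with ODC1 siRNA, 12197606 for Huh7 with NC siRNA, 11227128 for Huh1 with ODC1 siRNA and 13384836 for Huh1 with NC siRNA. A single read on 500 bases, about the length of a clustered gene, was worth between 0.149 and 0.196 RPKM. The 38 clustered genes that never reached 1 RPKM were not tested, and the highest value among them was 0.98 RPKM. Of these, 4 were listed at 0 in every library (HIST1H2AA, HIST1H2BA, HIST1H4F and HIST1H4G), as were the variant genes H1FNT, known from testis, and H1FOO, known from oocytes. A count of 0 reads allows up to 3 reads. Copies are near-identical in places: all 50-base words of HIST1H4K, 81.2% of those of HIST1H4J and 74.1% of those of HIST1H2BK occurred in another gene of the annotation, so the values of these genes depend on how reads were shared out. HIST1H1C, HIST1H4H, HIST1H2BH, H1F0 and H2AFY2 had 0% of such words.

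**Figure D1:**
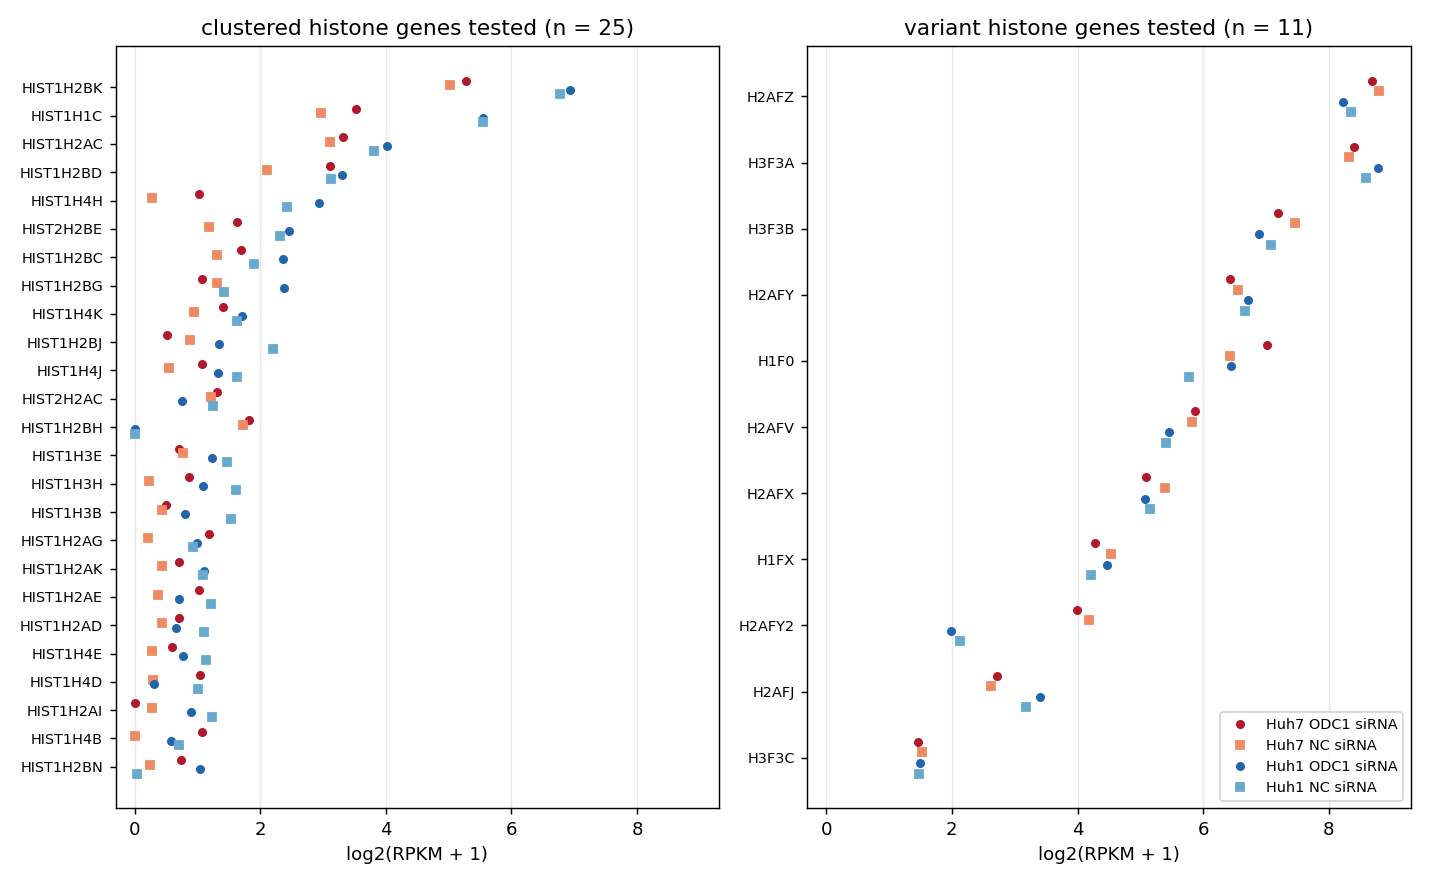
Levels of the 36 tested histone genes in each library, on the x axis as log2(RPKM + 1), with 1 point per library; clustered genes (n = 25) are on the left and variant genes (n = 11) on the right, each ordered by mean RPKM. The highest clustered gene, HIST1H2BK, reached 121 RPKM in Huh1 cells with ODC1 siRNA, and the highest variant gene, H2AFZ, 444 RPKM in Huh7 cells with NC siRNA.

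Families differed in how much of their RNA came from clustered genes. The H2B and H4 families had clustered members only. Variant genes carried between 98.7% and 99.5% of the summed H3 level and between 95.7% and 98.1% of the summed H2A level in the 4 libraries. In the H1 family, the clustered genes had 7.01% with ODC1 siRNA and 6.67% with NC siRNA in Huh7 cells, and 30.2% with ODC1 siRNA and 39.1% with NC siRNA in Huh1 cells. HIST1H2BK, an H2B gene, was the highest clustered gene in every library, and the summed H4 level of 13 genes was between 3.09 and 14.2 RPKM.

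**Figure D2:**
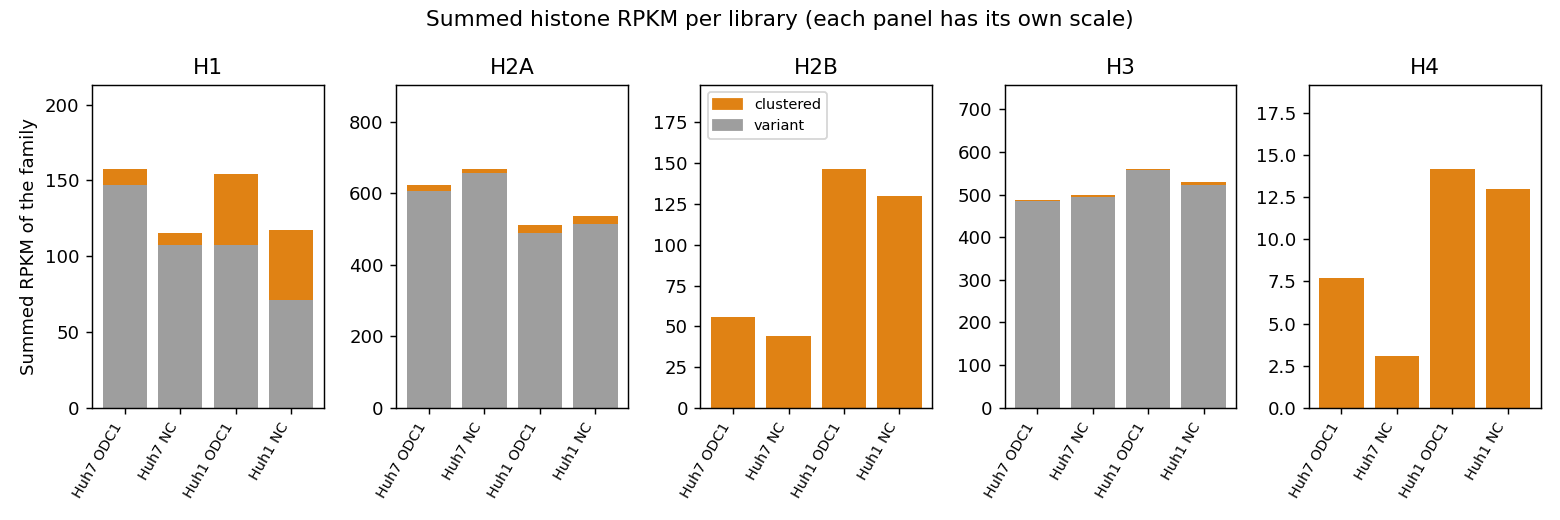
Summed RPKM of each histone family (y axis, starting at 0, with its own scale in each panel) in the 4 libraries, with clustered genes in orange on top of variant genes in grey. H2B stood at 55.8 RPKM with ODC1 siRNA and 43.9 RPKM with NC siRNA in Huh7 cells, and at 147 RPKM with ODC1 siRNA and 130 RPKM with NC siRNA in Huh1 cells.

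The first comparison asked which histone genes differed with ODC1 siRNA. H1F0, the linker histone variant known to accumulate in resting and differentiated cells, rose with ODC1 siRNA, and was the only 1 of the 36 tested members to pass the test. It stood at 128 RPKM with ODC1 siRNA and 85.3 RPKM with NC siRNA in Huh7 cells, and at 86.4 RPKM with ODC1 siRNA and 53.7 RPKM with NC siRNA in Huh1 cells. In each line the ODC1 siRNA library was the higher one, while across lines the groups overlapped, since Huh1 with ODC1 siRNA was level with Huh7 with NC siRNA. The log2 fold change was 0.58 in Huh7 and 0.68 in Huh1, and 0.63 ± 0.07 over both lines (limma SE, adjusted p = 0.00869). Counting error alone gave a ratio of 1.504 (95% interval 1.43 to 1.59) in Huh7 and 1.61 (1.51 to 1.72) in Huh1.

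The test was limma on log2(RPKM + 1) with line and siRNA as terms, fitted to 12039 genes that reached 1 RPKM in some library, and p-values were adjusted over all of them by Benjamini-Hochberg, with a threshold of 0.05. With 1 library per group there are no replicates: the residual spread is how far the siRNA effect of Huh7 departs from that of Huh1, and nothing in the labels says whether the libraries came from separate cultures. By this test 2.12% of all genes tested were called, 1.5% higher and 0.615% lower, so 1 call among 36 members is near the background. At an unadjusted p under 0.05 there were 8 members, 6 higher and 2 lower, which is 22.2% of the members, against 19% of all genes tested. The H1F0 call was lost when no low-value filter was used (adjusted p = 0.293), without the intensity trend (adjusted p = 0.204) and without the line term, settings under which 0 of all genes were called. In bulk RNA, a change in the share of cells expressing a gene and a change in RNA per cell cannot be told apart.

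Cell type markers also moved with the siRNA. Of 10 hepatocyte markers, 1 rose (TTR, log2 fold change 0.47, adjusted p = 0.0494) and 1 fell (ALB, -0.32, adjusted p = 0.0232) by limma, and at an unadjusted p under 0.05 there were 1 higher and 6 lower. Their median was -0.36 in Huh7 and -0.06 in Huh1, and their sum was 2661 RPKM with ODC1 siRNA and 3354 RPKM with NC siRNA in Huh7 cells, and 4742 RPKM with ODC1 siRNA and 5407 RPKM with NC siRNA in Huh1 cells. Of 4 fibroblast markers tested, LUM rose (0.39, limma, adjusted p = 0.0403). The part of these markers in the H1F0 result and in the values of the clustered genes was not tested.

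The other variant genes with a mean of at least 10 RPKM moved less and did not pass. H1FX, another linker variant, stood at 18.3 RPKM with ODC1 siRNA and 22.2 RPKM with NC siRNA in Huh7 cells, and at 21.2 RPKM with ODC1 siRNA and 17.6 RPKM with NC siRNA in Huh1 cells. The order of its libraries was thus opposite in the lines, with a log2 fold change over both of -0.0042 ± 0.12 (limma, adjusted p = 0.990).

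The genes H3F3A and H3F3B encode the same protein, the replication-independent H3.3, from different loci. H3F3A stood at 336 RPKM with ODC1 siRNA and 317 RPKM with NC siRNA in Huh7 cells, and at 437 RPKM with ODC1 siRNA and 386 RPKM with NC siRNA in Huh1 cells. H3F3B stood at 146 RPKM with ODC1 siRNA and 176 RPKM with NC siRNA in Huh7 cells, and at 118 RPKM with ODC1 siRNA and 134 RPKM with NC siRNA in Huh1 cells. The ODC1 siRNA library was the higher one in both lines for H3F3A and the lower one in both lines for H3F3B. The log2 fold changes over both lines were 0.13 ± 0.06 for H3F3A (limma, adjusted p = 0.269) and -0.23 ± 0.06 for H3F3B (limma, adjusted p = 0.109), and the difference between the genes was not tested. Of the 50-base words of H3F3A, 34.8% occurred in another gene.

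Among the H2A variants, H2AFZ and H2AFV encode the 2 forms of H2A.Z, which marks promoters. H2AFZ stood at 411 RPKM with ODC1 siRNA and 444 RPKM with NC siRNA in Huh7 cells, and at 297 RPKM with ODC1 siRNA and 328 RPKM with NC siRNA in Huh1 cells. The ODC1 siRNA library was lower in both lines, by a log2 fold change of -0.13 ± 0.06 over both (limma, adjusted p = 0.268). H2AFX had log2 fold changes of -0.29 in Huh7 and -0.09 in Huh1 (limma over both lines, adjusted p = 0.270). H2AFV, at 0.06 in Huh7 and 0.05 in Huh1, and H2AFY, which encodes macroH2A1, at -0.14 in Huh7 and 0.05 in Huh1, did not pass either (limma, adjusted p = 0.734 and 0.770).

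No clustered gene passed the test for siRNA: 0 of 25 were called by limma, with 6 at an unadjusted p under 0.05, of which 5 were higher and 1 lower with ODC1 siRNA. The median log2 fold change of the 25 was 0.38 in Huh7 and 0.00 in Huh1, beside -0.0020 in Huh7 and 0.017 in Huh1 over all genes tested. In Huh7, 21 of the 25 were above 0 with ODC1 siRNA, and in Huh1 12 of 25 were. Among all 12039 genes tested, 5914 were above 0 in Huh7 and 6546 in Huh1. Of the 18 clustered genes that reached 1 RPKM under both siRNAs, 15 were above 0 in Huh7 and 10 in Huh1. A further 3 clustered genes entered the test through ODC1 siRNA libraries alone and 4 through NC siRNA libraries alone. In 11 of 25 (44%) both lines were higher with ODC1 siRNA, against 34.1% of all genes tested, and in 3 of 25 (12%) both were lower, against 30%. The variant genes had medians of -0.11 in Huh7 and 0.05 in Huh1, with 4 of 11 higher in both lines and 4 of 11 lower in both. The median of the clustered genes minus that of the variant genes was 0.16 over both lines, 0.49 in Huh7 alone and -0.05 in Huh1 alone, so its direction rests on the Huh7 libraries.

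The clustered genes known to give polyadenylated mRNA were higher with ODC1 siRNA in both lines in 6 of 6 cases (HIST1H1C, HIST1H2AC, HIST1H2BC, HIST1H2BD, HIST1H2BK and HIST2H2BE), against 34.1% of all genes tested. Of these 6, 0 were called by limma and 3 were at an unadjusted p under 0.05. The list was chosen with earlier results of these data known, so 6 of 6 is a description and no support for an siRNA effect. HIST1H1C was level in Huh1 (log2 fold change 0.00083). The median log2 fold change of the 6 genes was 0.41 in Huh7 and 0.17 in Huh1. HIST1H2BK stood at 37.9 RPKM with ODC1 siRNA and 31.5 RPKM with NC siRNA in Huh7 cells, and at 121 RPKM with ODC1 siRNA and 108 RPKM with NC siRNA in Huh1 cells. Both of its ODC1 siRNA values were above the NC siRNA value of the same line, and the log2 fold change over both was 0.21 ± 0.07 (limma, adjusted p = 0.168). HIST1H1C, which encodes the linker histone H1.2, stood at 10.6 RPKM with ODC1 siRNA and 6.83 RPKM with NC siRNA in Huh7 cells, and at 45.8 RPKM with ODC1 siRNA and 45.7 RPKM with NC siRNA in Huh1 cells. The difference was thus in the Huh7 pair (79 against 61 reads, ratio 1.55, 95% counting interval 1.09 to 2.20), and over both lines the log2 fold change was 0.28 ± 0.13 (limma, adjusted p = 0.284). HIST1H2AC, an H2A gene, stood at 8.96 RPKM with ODC1 siRNA and 7.66 RPKM with NC siRNA in Huh7 cells, and at 15.2 RPKM with ODC1 siRNA and 13.0 RPKM with NC siRNA in Huh1 cells, and its log2 fold change was 0.20 in Huh7 and 0.21 in Huh1 (limma over both lines, adjusted p = 0.302). HIST1H2BD, an H2B gene, stood at 7.60 RPKM with ODC1 siRNA and 3.33 RPKM with NC siRNA in Huh7 cells, and at 8.91 RPKM with ODC1 siRNA and 7.78 RPKM with NC siRNA in Huh1 cells. Its Huh7 NC library was the low one among the 4, and the log2 fold change over both lines was 0.58 ± 0.18 (limma, adjusted p = 0.134).

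By the rule of size within a line (at least 2-fold on log2(RPKM + 1), no test), 1 member passed in Huh7 and 1 in Huh1, both higher with ODC1 siRNA and both resting on few reads. Each reached 1 RPKM in no library other than the one where it was high, so it was eligible through the same value that sets its fold, and the counts support nothing on siRNA. Over all genes, 0.342% were at least 2-fold higher and 0.429% lower in Huh7, and 0.055% were higher and 0.0275% lower in Huh1. In Huh7 it was HIST1H4B, an H4 gene, at 1.097 RPKM with ODC1 siRNA and listed at 0 with NC siRNA, which is 4 reads against 0. The 95% counting interval of the HIST1H4B ratio began at 0.788 and so included 1. In Huh1 it was HIST1H2BN, an H2B gene, at 1.05 RPKM with ODC1 siRNA and 0.024 RPKM with NC siRNA, about 6.4 against 0.2 read equivalents, and in Huh7 it stood at 0.67 RPKM with ODC1 siRNA and 0.18 RPKM with NC siRNA. The counting intervals of the ratio excluded 1 in Huh7 for 3 of 25 clustered genes, all higher (HIST1H1C, HIST1H2BD and HIST2H2BE), and in Huh1 for 2 higher (HIST1H2BG and HIST1H2BN) and 1 lower (HIST1H2BJ). For HIST1H2BD, HIST2H2BE, HIST1H2BJ and HIST1H2BN the intervals rest on read equivalents rounded to whole reads. Among the 11 variant genes the intervals excluded 1 for 2 higher and 5 lower in Huh7, and for 3 higher and 2 lower in Huh1. All of these variant genes except H2AFZ also rest on rounded read equivalents. The share over all genes was not taken, so these counts are a description.

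**Figure D3:**
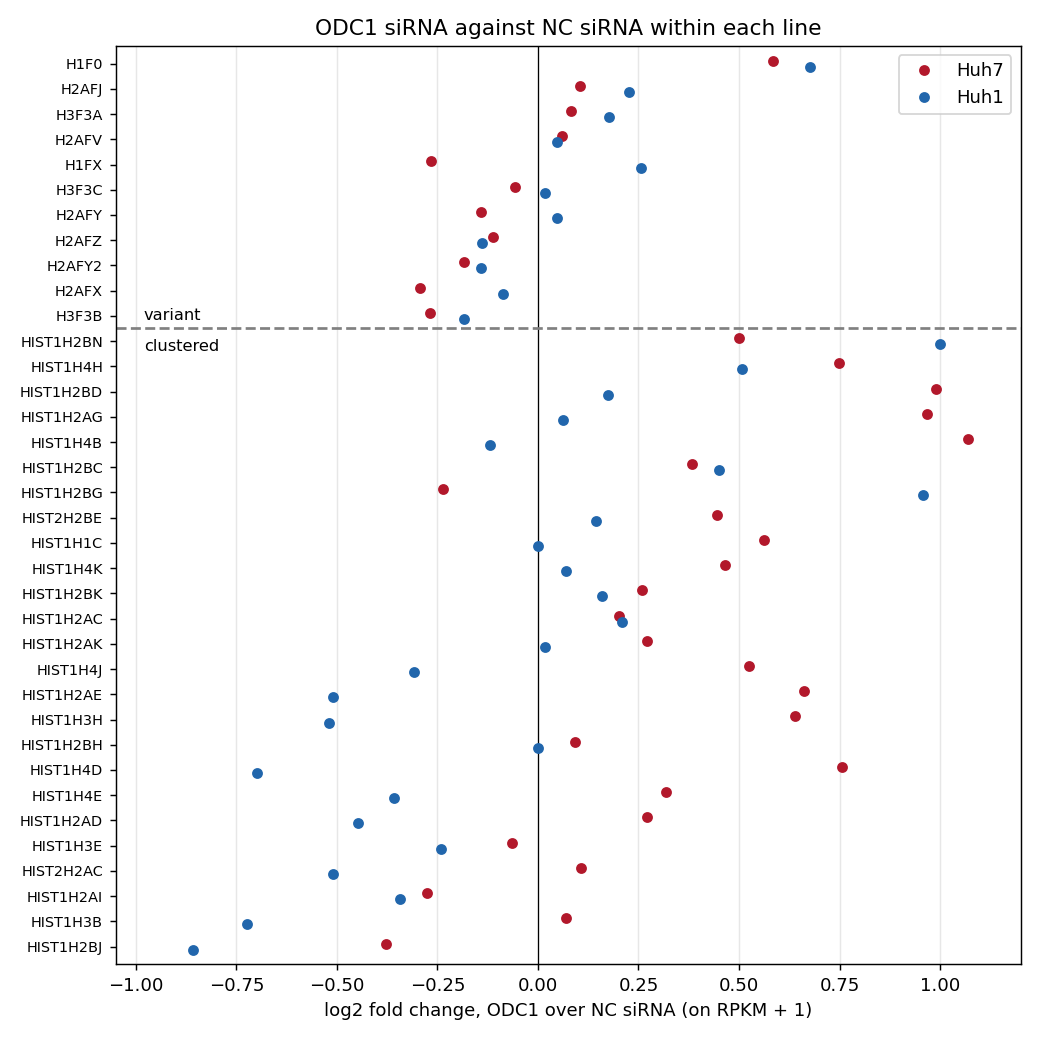
Log2 fold change of ODC1 over NC siRNA on RPKM + 1 (x axis) for the 36 tested members (rows), with a red point for Huh7 and a blue point for Huh1, and variant genes above the dashed line. H1F0 is at 0.58 in Huh7 and 0.68 in Huh1, and the clustered genes run from -0.38 to 1.07 in Huh7 and from -0.86 to 1.00 in Huh1.

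Genes around histone supply showed few calls for siRNA. Of the 20 genes of histone mRNA processing and decay, 0 rose and 0 fell by limma, with 3 higher and 4 lower at an unadjusted p under 0.05, and their median over both lines was -0.01. SLBP, which binds the stem-loop, stood at 67.8 RPKM with ODC1 siRNA and 79.3 RPKM with NC siRNA in Huh7 cells, and at 28.2 RPKM with ODC1 siRNA and 32.7 RPKM with NC siRNA in Huh1 cells. The ODC1 siRNA library was lower in both lines, by a log2 fold change of -0.21 ± 0.07 (limma, adjusted p = 0.166). NPAT had a log2 fold change of -0.28 ± 0.12 (limma, adjusted p = 0.251), ERI1, an exonuclease of histone mRNA decay, -0.50 ± 0.13 (limma, adjusted p = 0.1005), and CSTF2T, a polyadenylation factor, 0.51 ± 0.11 (limma, adjusted p = 0.0522). ZNF473, of the complex that cuts histone pre-mRNA, was at 0.35 ± 0.13 (limma, adjusted p = 0.189).

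Of the 28 histone chaperones and remodellers, 0 rose and 0 fell with ODC1 siRNA by limma, with 0 higher and 1 lower at an unadjusted p under 0.05. The lower one was ANP32E, a chaperone that removes H2A.Z, at -0.24 ± 0.07 (limma, adjusted p = 0.115), and CHAF1A and CHAF1B, subunits of the factor that deposits new H3 and H4 at replication forks, were at -0.16 and -0.20 and did not pass either (limma, adjusted p = 0.391 and 0.309). Of the 24 S-phase genes, 0 rose and 1 fell by limma. At an unadjusted p under 0.05, 0 were higher and 9 lower, against 1293 higher and 993 lower among all 12039 genes tested. In both lines 17 of the 24 were below 0, against 30% of all genes tested. The median of the 24 was -0.15 in Huh7 and -0.05 in Huh1. The 1 gene that passed was CCNE1, the cyclin that drives entry into S phase. It stood at 8.35 RPKM with ODC1 siRNA and 14.0 RPKM with NC siRNA in Huh7 cells, and at 3.17 RPKM with ODC1 siRNA and 4.80 RPKM with NC siRNA in Huh1 cells. Its ODC1 siRNA library was the lower one in both lines (log2 fold change -0.58 ± 0.11, limma, adjusted p = 0.0449). CDC45, a part of the replicative helicase, CDT1, which licenses origins, and RRM2, a subunit of ribonucleotide reductase, were at -0.28, -0.24 and -0.23 and did not pass (limma, adjusted p = 0.128, 0.205 and 0.145). The summed level of the S-phase list was 1426 RPKM with ODC1 siRNA and 1603 RPKM with NC siRNA in Huh7 cells, and 1136 RPKM with ODC1 siRNA and 1185 RPKM with NC siRNA in Huh1 cells. The part of S-phase share in the histone values was not tested.

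The second comparison set the lines against each other over both siRNAs. Most clustered genes that reached 1 RPKM in both lines were lower in Huh7 than in Huh1, among them the most abundant ones, while variant genes went in both directions. Of the 25 clustered genes, 16 were lower and 1 higher in Huh7 by limma, and 8 did not pass. Of these 25, 9 reached 1 RPKM only in Huh1 libraries (6 lower and 0 higher in Huh7) and 3 only in Huh7 libraries (0 lower and 1 higher), so they entered the test through the line where they were high. The 6 lower ones were HIST1H2AK, HIST1H2AI, HIST1H2BJ, HIST1H3E, HIST1H3H and HIST1H3B, and the 1 higher one was HIST1H2BH. Their calls do not count as support for a line difference. Of the 13 that reached 1 RPKM in both lines, 10 were lower, 0 higher and 3 did not pass. Of the 11 variant genes, 3 were lower and 5 higher, and 3 did not pass. Over all members 25 of 36 were called (69.4%), against 73.9% of all genes tested, which is near the background. The directions were 52.8% lower and 16.7% higher among members, against 30.8% lower and 43.1% higher among all genes tested, and 64% lower among clustered genes. These shares, and the clustered median below, take in the genes that reached 1 RPKM in only 1 line. They are a description, and the share of all genes that reached it in both lines was not taken. The median log2 fold change, Huh7 over Huh1, was -0.61 for clustered genes and 0.13 for variant genes, and the median of all genes tested was also 0.13 as deposited, 0.04 after upper quartile scaling and 0.00080 after quantile normalization.

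HIST1H1C, the clustered gene with the largest log2 fold change on RPKM + 1, had 10.6 and 6.83 RPKM in the Huh7 libraries with ODC1 and NC siRNA, against 45.8 and 45.7 RPKM in the Huh1 libraries with ODC1 and NC siRNA. Both Huh7 libraries were far below both Huh1 libraries, with a log2 fold change of -2.30 ± 0.13 (limma, adjusted p = 7.47e-07). HIST1H4H, an H4 gene, stood at 1.05 RPKM with ODC1 siRNA and 0.22 RPKM with NC siRNA in Huh7 cells, and at 6.67 RPKM with ODC1 siRNA and 4.39 RPKM with NC siRNA in Huh1 cells. Its reads were 4 and 1 in the Huh7 libraries and 28 and 22 in the Huh1 libraries, a ratio of 0.110 (95% counting interval 0.034 to 0.274), and the log2 fold change was -2.03 ± 0.15 (limma, adjusted p = 3.38e-06). Folds of such low genes depend on the pseudocount: with 0.1 in place of 1 the log2 fold change was -3.19 for HIST1H4H and -2.41 for HIST1H1C, which reverses their order. HIST1H2BK, given above, was also without overlap, at -1.69 ± 0.07 (limma, adjusted p = 1.32e-07).

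Of the other clustered genes, HIST1H2BJ, HIST1H2AI and HIST1H3H reached 1 RPKM only in Huh1, so they were tested through the line where they were high. HIST1H2BJ, an H2B gene, was lower in Huh7 by a log2 fold change of -1.07 (limma, adjusted p = 5.39e-04) and HIST2H2BE by -0.98 (limma, adjusted p = 2.72e-04). HIST1H2AI, whose sequence is shared to 62.3% with another member, was at -0.93, HIST1H3H, an H3 gene, at -0.80 and HIST1H2BG at -0.71 (limma, adjusted p = 0.00137, 0.0203 and 0.0296). With a pseudocount of 0.1 these became -2.74 for HIST1H2AI, -1.69 for HIST1H3H, -1.01 for HIST1H2BG and -1.80 for HIST1H2BJ. Without the low-value filter HIST1H2BG and HIST1H3H did not pass (limma, adjusted p = 0.126 and 0.0814), and HIST1H2BG did not pass without the intensity trend or without the siRNA term either (limma, adjusted p = 0.0707 and 0.0934). The remaining 8 lower ones lay between these and -0.49. In 17 of 25 clustered genes (68%) both Huh7 libraries were below both Huh1 libraries, against 35.4% of all genes tested. This count takes in genes that reached 1 RPKM only in Huh1. All 6 genes listed as giving polyadenylated mRNA, a list chosen with earlier results of these data known, were lower in Huh7, with a median of -0.84. HIST1H2BD did not pass without the low-value filter or without the siRNA term (limma, adjusted p = 0.0819 and 0.136).

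HIST1H2BH went the other way, and it reached 1 RPKM only in the Huh7 libraries, so it too was tested through the line where it was high. It stood at 2.53 RPKM with ODC1 siRNA and 2.31 RPKM with NC siRNA in Huh7 cells, and was listed at 0 in both Huh1 libraries. These values are 11 and 12 reads in the Huh7 libraries and 0 in the Huh1 libraries. The 95% counting interval of the Huh7 over Huh1 ratio began at 6.31, and has no upper end with 0 reads in Huh1. The limma log2 fold change was 1.78 as reported and 4.66 with a pseudocount of 0.1, and neither is a bound (adjusted p = 1.74e-05 as reported). HIST1H2BH shares its octamer and stem-loop with HIST1H2BG, which was lower in Huh7, but its promoter window has no TATAAA and that of HIST1H2BG has. The part of these elements in the line difference was not tested.

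Genes of divergent pairs were set side by side between the lines, and no difference within a pair was tested. Of the 11 pairs, 5 had both members tested. HIST1H2BC and HIST1H2AC were both lower in Huh7, at -0.62 ± 0.14 and -0.70 ± 0.10 (limma, adjusted p = 0.00300 and 2.12e-04). HIST2H2BE was lower in Huh7 while HIST2H2AC, its partner, stood at 0.26 ± 0.19 and did not pass (limma, adjusted p = 0.238), and the difference within the pair was not tested. HIST1H2BJ, which reached 1 RPKM only in Huh1, was lower in Huh7. Its partner HIST1H2AG, which reached it only in Huh7, was at -0.25 ± 0.23 (limma, adjusted p = 0.339). HIST1H2BG was lower in Huh7, and HIST1H2AE was at -0.26 ± 0.26 (limma, adjusted p = 0.386). HIST1H2AK and HIST1H2BN both reached 1 RPKM only in Huh1, so the HIST1H2AK call does not count as support for a line difference. HIST1H2AK was at -0.53 ± 0.17 and HIST1H2BN at -0.04 ± 0.20 (limma, adjusted p = 0.0218 and 0.859). HIST1H2AG had between 1 and 6.4 read equivalents per library, and a call in 1 gene alone shows no difference within a pair.

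H2AFY2, which encodes macroH2A2, a variant with a large non-histone domain known from silent chromatin, had the largest log2 fold change among the variants. It stood at 15.0 RPKM with ODC1 siRNA and 17.1 RPKM with NC siRNA in Huh7 cells, and at 2.98 RPKM with ODC1 siRNA and 3.39 RPKM with NC siRNA in Huh1 cells. Both Huh7 libraries were above both Huh1 libraries, by a log2 fold change of 2.02 ± 0.11 (limma, adjusted p = 5.11e-07). Its reads, 333 and 455 in the Huh7 libraries against 73 and 99 in the Huh1 libraries, gave a ratio of 5.03 (95% counting interval 4.26 to 5.97). H2AFY, the gene of macroH2A1, was lower in Huh7, at 84.6 RPKM with ODC1 siRNA and 93.4 RPKM with NC siRNA in Huh7 cells, and at 103 RPKM with ODC1 siRNA and 100.1 RPKM with NC siRNA in Huh1 cells. Its log2 fold change was -0.19 ± 0.07 (limma, adjusted p = 0.0383), and it did not pass without the low-value filter, the intensity trend or the siRNA term (limma, adjusted p = 0.0715, 0.137 and 0.103).

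Both H2A.Z genes were higher in Huh7, H2AFZ by a log2 fold change of 0.45 ± 0.06 and H2AFV by 0.41 ± 0.07 (limma, adjusted p = 9.48e-05 and 8.86e-04). Of the H3.3 genes, H3F3B was higher in Huh7, at 0.35 ± 0.06, and H3F3A lower, at -0.33 ± 0.06 (limma, adjusted p = 0.00104 and 8.19e-04). H3F3A did not pass after quantile normalization (-0.08, limma, adjusted p = 0.274). H2AFJ, an H2A variant gene, was lower in Huh7, at -0.62 ± 0.11 (limma, adjusted p = 9.28e-04). H1F0 was higher in Huh7, at 0.61 ± 0.07 (limma, adjusted p = 5.12e-05), but its lines overlapped, and without the siRNA term it did not pass (limma, adjusted p = 0.0957). H1FX, H2AFX and H3F3C did not pass between the lines, and the sign of H1FX, at 0.06 as reported, was negative after quantile normalization (-0.035) and upper quartile scaling (-0.035).

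**Figure D4:**
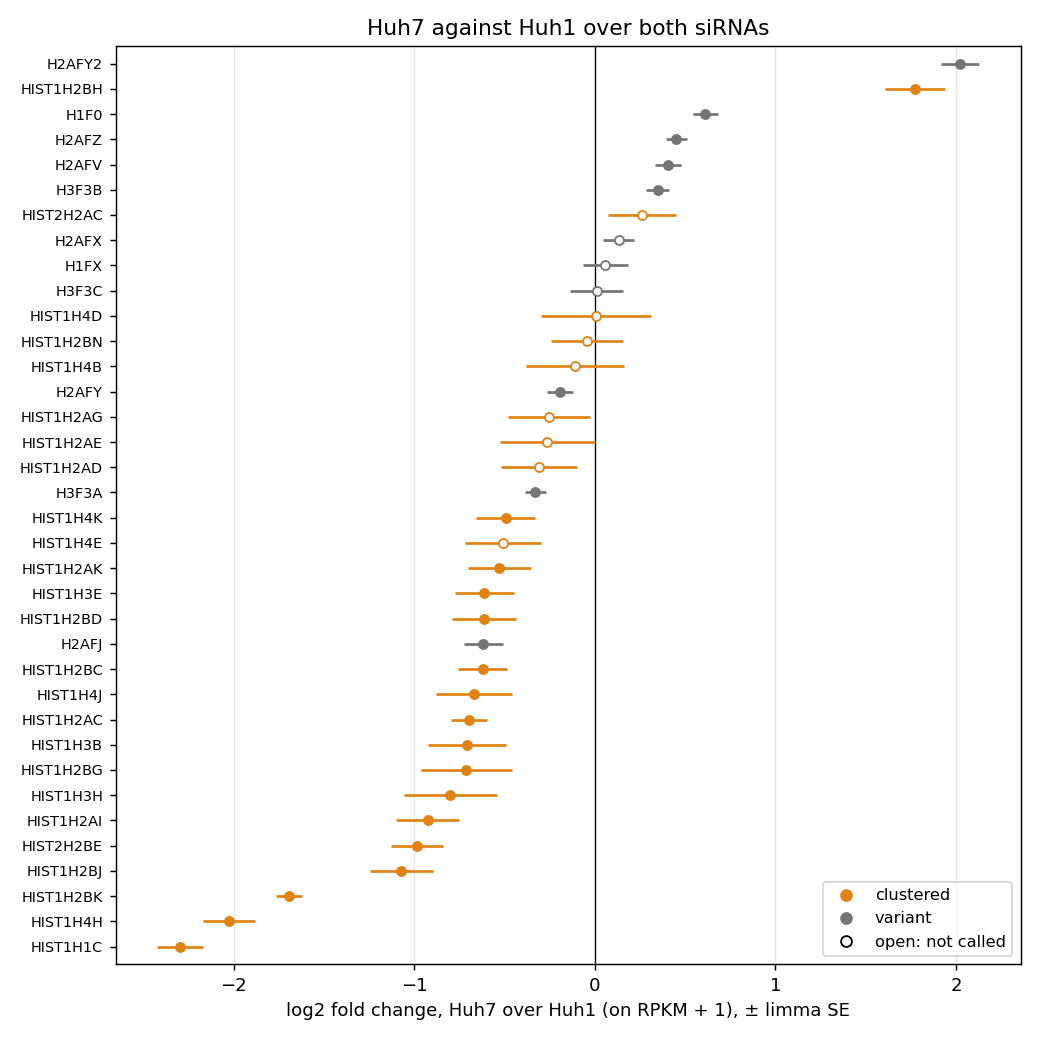
Log2 fold change of Huh7 over Huh1 on RPKM + 1 with its limma SE (x axis) for the 36 tested members (rows), in orange for clustered and grey for variant genes, with open points for those not called. Values run from -2.30 for HIST1H1C to 2.02 for H2AFY2.

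Other genes of the histone system were called between the lines in both directions, as were most genes tested (73.9%, with 43.1% higher and 30.8% lower in Huh7). In the processing and decay list 10 of 20 were higher and 5 lower in Huh7. Among the 28 chaperones 14 were higher and 8 lower, and among the 24 S-phase genes 14 were higher and 5 lower. Beside the shares of all genes, these counts are a description and not a result about the lists. SLBP was higher in Huh7, by 1.24 ± 0.07, and NPAT lower, at -0.42 ± 0.12 (limma, adjusted p = 9.56e-07 and 0.0104). Cell type markers were set between the lines as well. All 10 of 10 hepatocyte markers were above 0 in every library, which does not tell the lines apart. Their sums, given above, were lower in both Huh7 libraries than in both Huh1 libraries, and ALB was the highest of them in each library. By limma 7 of the 10 were lower in Huh7, and 3 were higher (AFP, TTR and FGB). AFP had a mean of 776 RPKM in Huh7 and 24.3 RPKM in Huh1. The 6 fibroblast markers summed to 370 and 284 RPKM in the Huh7 libraries and 15.7 and 12.1 RPKM in the Huh1 libraries, and 4 of 4 tested were higher in Huh7, led by COL1A1. Of the fibroblast markers, DCN and PDGFRB stayed under 1 RPKM in every library, and COL3A1 and DCN, 2 of the 6, were at 0 in Huh1 with NC siRNA. Of 7 blood and endothelium markers 6 were found, and these summed to under 1 RPKM in every library, and CDH5 was at 0 in all. The hepatocyte and fibroblast sums move with the line in which clustered histone genes were lower, and their part in that result was not tested.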

How the data were processed

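The 4 TruSeq RNA libraries were made from total RNA, per the labels' protocols. The submitters' processing notes name hg19, TopHat2 2.0.9 and CASAVA 1.8.2. Which counter, annotation and strand setting were used is not given in the sources used here. Reads of antisense or near-identical genes may therefore be mixed. The authors deposited RPKM per RefSeq transcript.

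From these, log2(RPKM + 1) was fitted with limma 3.58.1 (R 4.3.3) as described in the report, with 1 residual and 7.42 prior degrees of freedom. Folds within a line have no test. The line term pairs ODC1 and NC libraries of a line. Depth came from the values of single reads. Reads of a gene were taken at the length, within 15% of the annotated one, where its 4 values were whole (tolerance 0.01 reads). The annotated length was the RefSeq span for clustered genes with 1 RefSeq transcript, and the GENCODE length for the rest. Such a length was found for 36 of 76 members, and the others are read equivalents that need not be whole. For the intervals these were rounded to whole reads. Intervals are exact (95%), and intervals and floors cover counting error only. Sequences are from RefSeq (GRCh38.p14) and GENCODE 29, a build other than that of the files. The fit was tested on simulated data.

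The members and lists were chosen with earlier results of these data known. Genes were named if their mean was at least 10 RPKM, if they were called or changed at least 2-fold with siRNA, if they were among the 8 largest called each way between lines, or, in other lists, if called or among the 3 largest folds. A few further members were named after their values were seen: the genes known to be polyadenylated, those of divergent pairs, those listed at 0 and those whose counting intervals excluded 1.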

Additional observations from a re-analysis of the deposited data

Results flagged for a closer look

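For 13 tested members the direction with ODC1 siRNA was opposite in the lines. With 1 library per group, none of these differences between lines was tested, and values are the log2 fold change in Huh7 minus that in Huh1. Among variant genes it was -0.5214 for H1FX, whose counting intervals excluded 1 in both lines (ratio 0.825, 0.707 to 0.963, in Huh7 and 1.21, 1.04 to 1.40, in Huh1), -0.1889 for H2AFY and -0.07289 for H3F3C. Among clustered H2A and H2B genes it was 0.7209 for HIST1H2AD, 1.172 for HIST1H2AE, 0.6167 for HIST2H2AC and -1.194 for HIST1H2BG. Among clustered H3 genes it was 0.7949 for HIST1H3B and 1.159 for HIST1H3H, and among H4 genes 1.187 for HIST1H4B, 1.456 for HIST1H4D, 0.6769 for HIST1H4E and 0.8328 for HIST1H4J. The 10 clustered genes rest on few reads, such as 4 and 1 with ODC1 and NC siRNA in Huh7 and 1 and 5 in Huh1 for HIST1H4D.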

How the results depend on the processing

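With ODC1 siRNA, the count of members called was 1 as reported, 0 with no filter on low values (70 members tested), 0 without the intensity trend and 0 with no replicate block (no line term), and each of these 3 settings called 0 of all genes. It was 2 with upper quartile scaling (H1F0 and HIST1H4H). The log2 fold change of H1F0 lay between 0.59 and 0.64 in all settings. Between the lines, 25 members were called as reported, 13 with a filter at 5 RPKM, which left 15 members to test, and between 20 and 28 in the other settings. The count at least 2-fold changed in Huh7 was 1 as reported, 7 with a pseudocount of 0.1, 6 with a 1.5-fold rule and 0 with a filter at 5 RPKM. In Huh1 it was 1 as reported, 5 (2 higher and 3 lower) with a pseudocount of 0.1, 6 (3 higher and 3 lower) with a 1.5-fold rule and 0 with the filter. The clustered minus variant median of 0.16 was reversed, at -0.047, without Huh7 libraries. Beyond the fewer genes tested, the cause was not tested. H1F0, the 1 member called for siRNA, lost its call in 3 alternative settings and kept it in 6. Between the lines, 17 alternative values of named members lost their call. The other alternative values, 96 for siRNA and 211 for lines, had the same status as reported. These take in members that were never called and so had no call to lose. The 2 that changed sign were both of H1FX between the lines, which was not called (-0.035 after quantile normalization and after upper quartile scaling). No label gives a replicate number or batch. Depth limits clustered genes, most of which had fewer than 10 reads per library.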
